A study of Mus musculus with 5 samples.

Results

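Bhlhe40 and Bhlhe41 were examined as loci bound by RXRα, by taking every RXRα peak whose midpoint had the transcription start site (TSS) of one of these genes as its nearest protein-coding TSS. This rule assigned 37 of 14808 peaks to the pair, 34 to Bhlhe40 and 3 to Bhlhe41. The peaks came from alveolar macrophages (AMs), sorted from mouse bronchoalveolar lavage, by HT-ChIPmentation, an immunoprecipitation of chromatin in which Tn5 transposase adds the sequencing adapters while the chromatin is still bound to beads. All mice carried floxed alleles of Rxra and Rxrb (Rxrabfl/fl). The libraries WT A and WT G came from mice without the Cre transgene (CD11cCre-), and KO A and KO G came from mice with it (CD11cCre+), in which Cre driven from the Cd11c promoter deletes both receptors in cells that express Cd11c. The antibody recognised RXRα, so RXRβ was not measured. The labels do not say whether a letter marks a shared litter or day, nor how many mice went into a library, and the lists hold no expression values with which the labelled cell type could be checked.

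BHLHE40 (DEC1) and BHLHE41 (DEC2) are closely related basic helix-loop-helix repressors of the Orange family. They bind the E-box CACGTG, repress genes driven by CLOCK and BMAL1 in the circadian feedback loop, and in AMs are known for supporting self-renewal and cell identity. RXRα is a nuclear receptor that binds repeats of the half-site AGGTCA, alone as a homodimer or with a partner such as PPARγ (repeats spaced by 1 base, DR1), LXR (4 bases, DR4) or RAR (5 bases, DR5). The question here was where, and in which libraries, RXRα was found around the genes of these repressors.

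The sequences under the summits are shown for the regions on which the results turn. Each is the plus strand of 50 bases on either side of a summit, read 5′ to 3′ from the GRCm38 (mm10) genome, with any match to a searched motif in capitals. The opening one is the window of the strongest WT A peak of the region with the highest −log10 q in WT G. Then come windows with a RUNX word, a DR4 and the best DR5 and DR1 matches. A pair from the regions closest to the Bhlhe40 TSS follows, and the last window belongs to the WT A peak of Bhlhe41.
Bhlhe40 −194 kb, WT A, chr6:108466255-108466355, C/EBP word on the minus strand: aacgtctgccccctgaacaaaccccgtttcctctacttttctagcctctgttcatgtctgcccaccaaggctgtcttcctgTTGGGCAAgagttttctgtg
Bhlhe40 −184 kb, WT A, chr6:108477005-108477105, RUNX word: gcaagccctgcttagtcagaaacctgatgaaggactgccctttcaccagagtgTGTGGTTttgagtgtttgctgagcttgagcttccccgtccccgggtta
Bhlhe40 −157 kb, WT A, chr6:108503834-108503934, DR4 on the minus strand: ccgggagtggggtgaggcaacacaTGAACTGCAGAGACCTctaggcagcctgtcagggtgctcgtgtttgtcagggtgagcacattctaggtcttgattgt
Bhlhe40 −90.8 kb, WT A, chr6:108569773-108569873, DR5: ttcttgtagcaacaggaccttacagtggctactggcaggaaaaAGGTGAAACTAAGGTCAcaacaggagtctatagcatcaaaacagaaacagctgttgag
Bhlhe40 −89.7 kb, WT G, chr6:108570831-108570931, DR1: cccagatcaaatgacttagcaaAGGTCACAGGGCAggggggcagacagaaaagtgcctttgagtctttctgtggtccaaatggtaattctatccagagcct
Bhlhe40 −2.16 kb, WT A, chr6:108658418-108658518, no match: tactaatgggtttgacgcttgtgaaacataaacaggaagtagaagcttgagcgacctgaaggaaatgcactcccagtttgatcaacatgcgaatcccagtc
Bhlhe40 −0.37 kb, WT G, chr6:108660209-108660309, STAT5 word: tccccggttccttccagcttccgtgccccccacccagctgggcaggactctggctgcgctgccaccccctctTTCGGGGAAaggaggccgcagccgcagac
Bhlhe41 +0.697 kb, WT A, chr6:145864555-145864655, no match: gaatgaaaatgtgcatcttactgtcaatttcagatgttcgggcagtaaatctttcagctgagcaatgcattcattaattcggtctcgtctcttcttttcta

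RXRα peaks were numerous around Bhlhe40, few at Bhlhe41, and absent from both in the KO lists. Bhlhe40 (chr6:108660629-108666925, plus strand, mm10) was nearest to 12 peaks of WT A and 22 of WT G, and to 0 of KO A and 0 of KO G. Bhlhe41 (chr6:145858243-145865558, minus strand) was nearest to 1 WT A peak, 2 WT G peaks and 0 peaks of each KO list. The WT and KO libraries did not overlap for either gene, which was also so for the 269 other genes with the same counts as Bhlhe41. The share of all genes without such an overlap was not counted. The mean was 17 ± 7.07 peaks (SD, n = 2) in WT and 0 in KO for Bhlhe40, and 1.5 ± 0.707 (SD, n = 2) against 0 for Bhlhe41. The exact permutation test (two-sided) gave p = 0.333 for each gene, which is the smallest value that 2 libraries against 2 can give, so the difference cannot pass 0.05 in this design. The labels do not say that the libraries are separate mice, and the spread between them may be technical.

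Against all genes, a peak in WT was not rare and a peak in KO was. At least 1 peak was nearest to 10.4% of the 21924 protein-coding genes for WT A, to 16.6% for WT G, to 0.351% for KO A and to 0.858% for KO G. Having no KO peak therefore sets neither member apart from other genes. With the coding TSSs of the GENCODE basic set, the number of peaks at Bhlhe40 was high. In WT A, 10 genes had more than its 12, and the highest count was 26. In WT G, 12 genes had more than its 22, and the highest was 37. The Bhlhe40 count falls when other TSSs compete, as given below, and ranks were not made for those settings. Bhlhe41 had the lowest count a bound gene can have in WT A, where 1000 genes had more than 1 peak, and 1120 genes had more than its 2 in WT G. The full lists were 4751 (WT A), 9766 (WT G), 83 (KO A) and 208 (KO G) peaks long. The rise from WT A to WT G was 1.83 times at Bhlhe40 and 2.06 times over the whole lists.

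**Figure D1:**
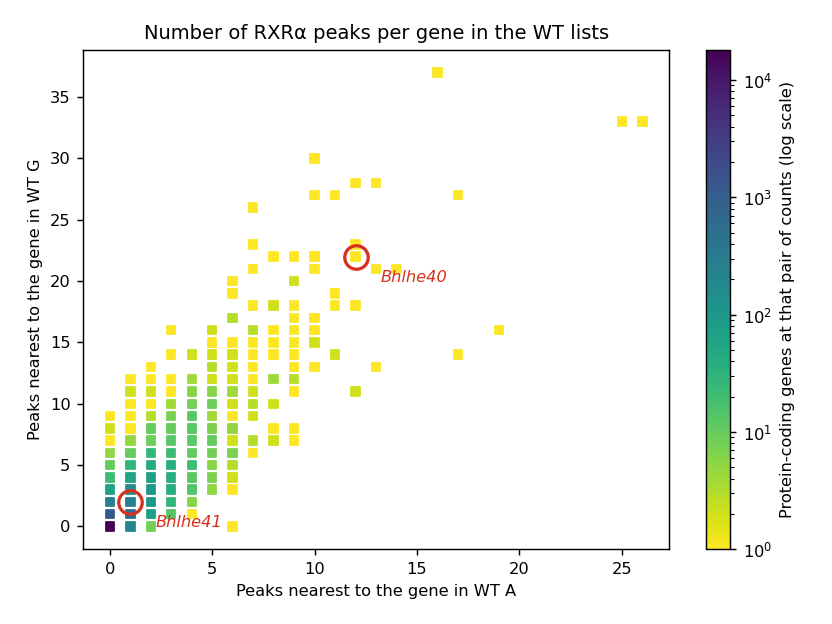
Number of peaks nearest to each protein-coding gene in WT A (x axis) and WT G (y axis); each square is a pair of counts, coloured by the number of genes at it on a log scale. The red rings mark Bhlhe40, at 12 and 22 among the few genes with the most peaks, and Bhlhe41, at 1 and 2, a pair of WT counts held by 283 genes, itself included.

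The peaks of Bhlhe40 were spread over a wide territory. Its closest protein-coding TSSs belong to Itpr1, an IP3 receptor that releases calcium from the endoplasmic reticulum, 447 kb upstream, and to Arl8b, a small GTPase of lysosomes, 122 kb downstream. Peaks were therefore assigned to Bhlhe40 from 224 kb upstream to 61.1 kb downstream of its TSS, and this stretch includes the 3′ part of the Itpr1 gene body (chr6:108213096-108551109). Of the Bhlhe40 peaks, 6 of 12 in WT A and 11 of 22 in WT G lay inside the Itpr1 body, 6 and 9 lay between protein-coding genes (some of them in noncoding genes next to Bhlhe40), and 0 and 2 lay in the body of Bhlhe40 itself, which is 6.3 kb long. In WT A, 5 were intronic, 5 intergenic and 2 in exons of noncoding genes. In WT G, 10 were intronic, 7 intergenic, 4 exonic and 1 at the promoter (from 1 kb before a TSS to 100 bp after it). Which gene a peak in the Itpr1 body acts on was not measured. The assignment rests on the TSSs that compete. The mean of 17 WT peaks became 8.5 when peaks inside other gene bodies were left out. It became 5.5 when the TSSs of all annotated transcripts of Itpr1 and other coding genes competed (comprehensive set). It became 0.5 when the TSSs of noncoding genes were instead added to the coding ones of the basic set. The KO lists stayed at 0.

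**Figure D2:**
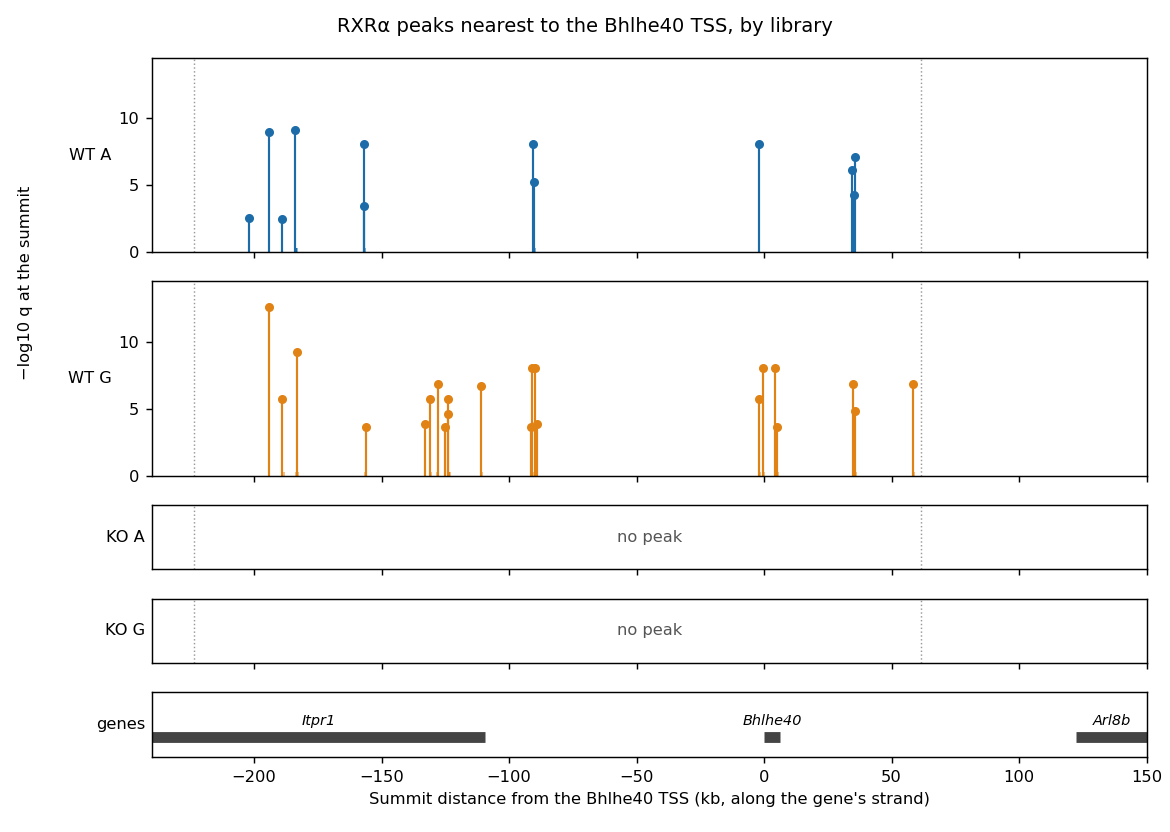
Peaks nearest to the Bhlhe40 TSS by library; the x axis is the distance of the summit from the TSS in kb, the height of each pin is the −log10 q at the summit, dotted lines are the midpoints to the neighbouring TSSs, and the lowest lane shows gene bodies. The WT A and WT G pins coincide in clusters around −194 to −183, −90.9, −1.92 and +35.1 kb, the pins from −133 to −111 kb are in WT G alone, and the KO lanes are empty.

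When the peaks of WT A and WT G were merged where they overlapped by at least 1 bp, Bhlhe40 had 23 regions, of which 8 held a peak of both lists, 2 of WT A alone and 13 of WT G alone. The 8 became 2 when the peaks had to share 50% of their length and 4 without peaks in the body of another gene. They became 2 when all transcripts of coding genes competed (comprehensive set), and 0 when noncoding genes were instead added to the basic set. A region in both WT lists was nearest to 8.82% of protein-coding genes. By the 1 bp criterion and the coding TSSs of the basic set, there were 11 genes with more than 8 such regions and 8 genes, Bhlhe40 among them, with exactly that number, and the highest count was 16. In terms of peaks, 10 of the 12 WT A peaks overlapped a WT G peak (83.2% over the whole list) and 9 of the 22 WT G peaks overlapped a WT A peak (36.1% over the list), so the overlap at Bhlhe40 was near that of all peaks. Of the 8 regions in both WT lists, 0 overlapped a KO peak, beside 5.87% of the 3423 such regions across the genome, and the 15 regions of a single WT list overlapped none either. Chromosome 6 held 3 KO A and 8 KO G peaks in all, and the closest to Bhlhe40 were 79.4 Mb (KO A) and 10.8 Mb (KO G) away.

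The most distal cluster lay in the 3′ part of Itpr1, which holds the strongest of the members' peaks. The region at −194 kb (chr6:108466118-108466664, intron) reached 9.01 (WT A) and 12.6 (WT G) in −log10 q, with fold enrichments of 7.45 and 9.93 over the input background. It ranked 647 of 9766 in WT G, the strongest of the members' peaks in that list, and its summits were 145 bp apart. The region at −189 kb (chr6:108471795-108472312, exon of the noncoding gene Gm44101 within Itpr1) was the weakest shared region in WT A, at 2.5 in −log10 q, with 5.7 in WT G. The region at −183 kb (chr6:108476701-108477733, intron) had 9.11 (WT A) and 9.26 (WT G), and its WT A peak was the strongest of the members in that list, at rank 1094 of 4751. At −156 kb (chr6:108503749-108504583, intron) the values were 8.06 (WT A) and 3.61 (WT G), and the summits were 402 bp apart.

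Between Itpr1 and Bhlhe40 there was a pair of intergenic regions about 90 kb upstream of the TSS. The first (chr6:108569427-108570108, −90.9 kb) had −log10 q of 8.06 (WT A) and 8.04 (WT G). The second (chr6:108570424-108571078, −89.9 kb) had 5.22 in WT A and 8.04 in WT G, with summits 356 bp apart. Weaker peaks of WT G alone flanked the pair at −91.5 kb (3.61) and −89.2 kb (3.87), so 4 of the 22 WT G peaks lay side by side here.

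Close to the gene, the shared region at −1.92 kb (chr6:108658285-108659125) lay on exons of the noncoding genes 0610040F04Rik and Gm17055, where −log10 q was 8.06 (WT A) and 5.73 (WT G) and the summits were 117 bp apart. The promoter itself (chr6:108660205-108660460, −0.296 kb) held a peak of WT G, with a −log10 q of 8.04 and a fold enrichment of 7.74, and none of WT A. Inside Bhlhe40, WT G alone had a peak on the coding part of the last exon (chr6:108664853-108665369, 8.04) and a weaker one in the 3′ UTR (chr6:108665711-108665949, 3.61). Downstream, the region at +35.1 kb (chr6:108695302-108696710) was the widest, at 1409 bp, and merged 3 WT A peaks and 2 WT G peaks. Its highest −log10 q was 7.12 in WT A and 6.88 in WT G, at summits 786 bp apart. A last peak of WT G lay at +58.2 kb (chr6:108718870-108719228, 6.88), close to the midpoint to Arl8b.

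The remaining peaks in a single WT library lay in Itpr1. The pair of WT A alone, at −202 kb (chr6:108458082-108458221) and −157 kb (chr6:108503575-108503690), had −log10 q of 2.6 and 3.43. In the introns of Itpr1, WT G alone had 7 peaks from −133 to −111 kb, with −log10 q from 3.61 to 6.88. WT A had no peak in that stretch.

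**Figure D3:**
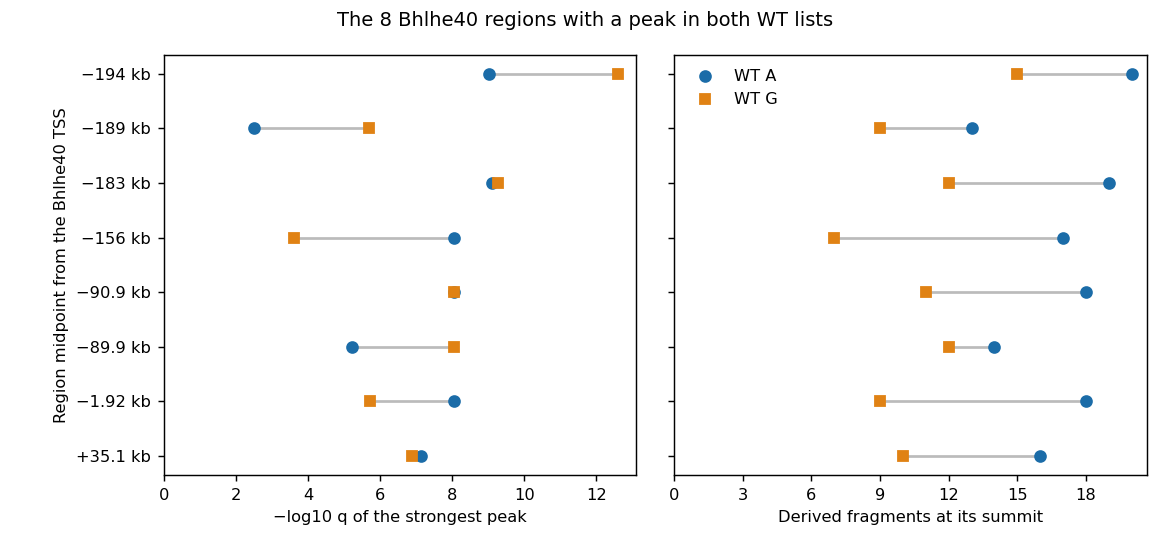
The 8 Bhlhe40 regions with a peak in both WT lists, by distance of the region from the TSS (y axis); the left panel gives the −log10 q of the strongest peak and the right panel the fragments derived at its summit, circles for WT A and squares for WT G. Fragments were fewer in WT G at each of the 8 regions, and −log10 q, which depends on the depth of each library, ran from 2.5 to 9.11 in WT A and from 3.61 to 12.6 in WT G.

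All peaks of Bhlhe41 lay within its own body, which is 7.32 kb long. Its neighbours are Rassf8, whose TSS is 45.4 kb away, and Sspn (sarcospan, a membrane protein of the dystrophin complex), 66.1 kb away, so peaks within 22.7 kb and 33 kb on these sides counted for it. The WT A peak (chr6:145864541-145864656, +0.703 kb, coding exon) had a −log10 q of 5.5 and a fold enrichment of 5.34. It was 116 bp wide, which is the shortest width in the WT A list, and the input background under it was 1.59 times the genome level. The WT G peaks were both in the 3′ UTR, at +3.9 kb (chr6:145861048-145861762) and +3.07 kb (chr6:145862124-145862338), each with a −log10 q of 5.73 and a fold enrichment of 6.45. When the TSSs of noncoding genes competed too, the mean of 1.5 WT peaks became 0.5 (p = 1, exact permutation test), and the noncoding gene Gm43909 overlaps the WT A summit. No region was in both lists, so each of the 3 Bhlhe41 regions rests on 1 library. There was no peak at its promoter in any of the 4 lists.

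**Figure D4:**
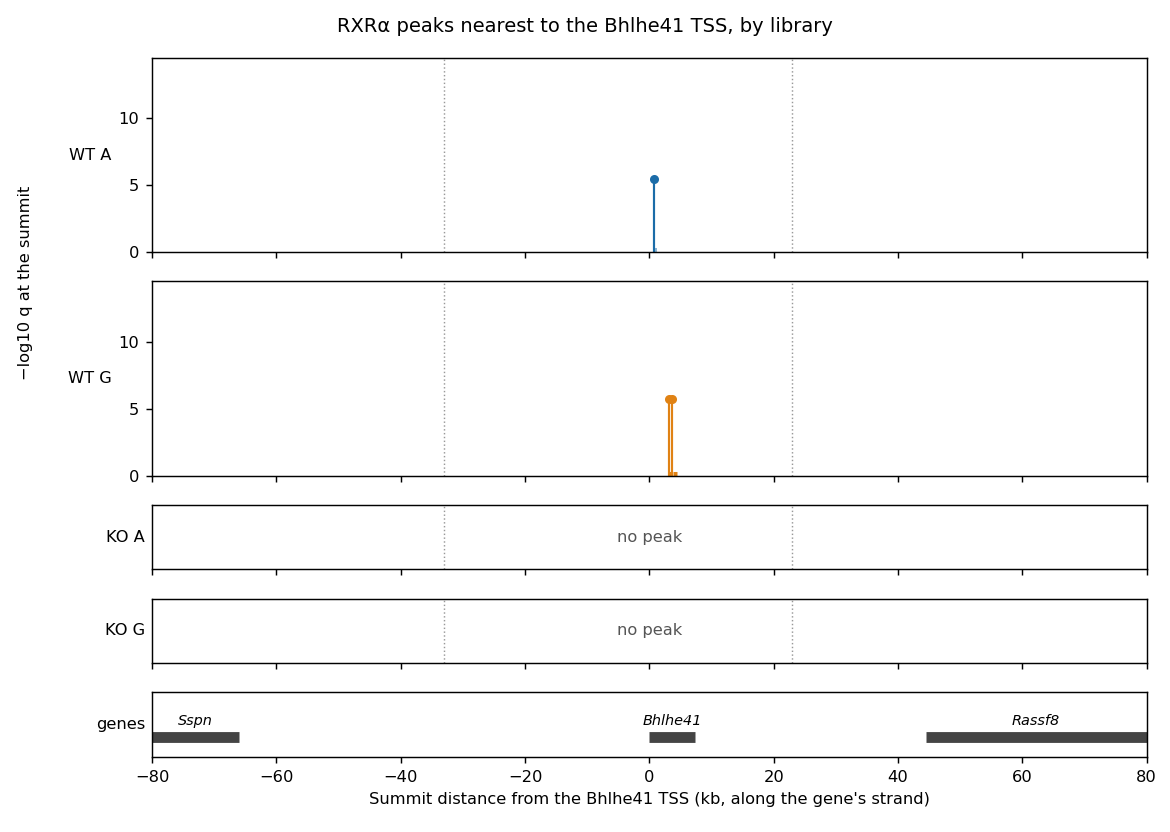
Peaks nearest to the Bhlhe41 TSS by library, drawn as for Bhlhe40 on the same height scale; the x axis is the distance of the summit from the TSS in kb along the gene's strand. The single WT A pin and the 2 WT G pins lie within the gene body, at different places, and the KO lanes are empty.

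The members' peaks were of moderate strength. In WT A the 12 Bhlhe40 peaks ranged from 2.5 to 9.11 in −log10 q, with a median of 6.64, and 5 of them were above the list median of 7.14. In WT G the 22 peaks ranged from 3.61 to 12.6, with a median of 5.73, and 15 were above the list median of 4.64. The strongest peak was as high as or higher than 77% of its list in WT A and 93.4% in WT G. The WT A peak of Bhlhe41 was below the median of its list, and both WT G peaks were above it. These values depend on the depth of each library, so they were ranked within a list, and a difference in −log10 q between WT A and WT G at a region was not tested.

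**Figure D5:**
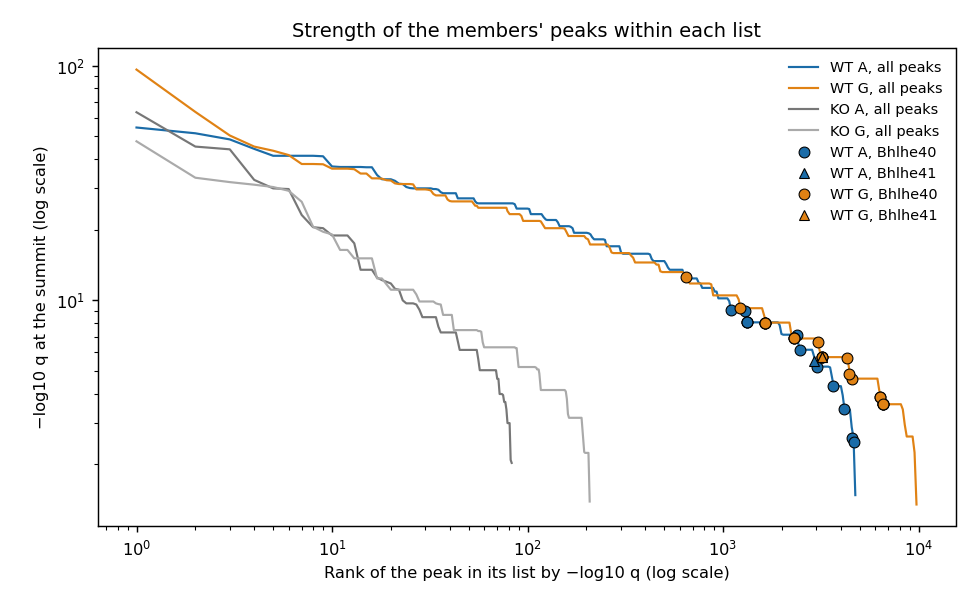
The −log10 q of every peak against its rank in its list (lines, both axes on a log scale), with the members' peaks as circles (Bhlhe40) and triangles (Bhlhe41). The members' points start at rank 647 in WT G and rank 1094 in WT A and reach the lower end of the WT A list, while the KO lists have no member point.

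Few fragments lay behind each peak. From the fold enrichment and the p-value, whole fragments at each summit could be derived, and Bhlhe40 summits held 11 to 20 of them in WT A (median 15.5) and 7 to 15 in WT G (median 9). The WT A peak of Bhlhe41 had 17 and the WT G peaks 9 each. The same derivation, which was not checked against read numbers, put the depth of WT A, KO A and KO G at 4.77, 2.73 and 3.58 times that of WT G, so the KO libraries were deeper than WT G and shallower than WT A. At the region of −90.9 kb, the 11 fragments of WT G would correspond to 30 at the depth of KO A and 39.4 at that of KO G, where the weakest peaks called had 10 and 8 fragments. The fragments scaled by depth take no account of differences in fragment length between libraries. The shortest peaks, which stand in for that length, were 116, 215, 138 and 102 bp in WT A, WT G, KO A and KO G. Scaled instead by the background level of each library, which includes fragment length, the 11 fragments would be 19.3 in KO A and 18.7 in KO G. From WT A, the 18 fragments there would be 10.3 and 13.5 by depth, or 12.3 and 11.9 by background. The weakest peak called in KO A was not reached by either scale from WT A at −189 kb (7.44 by depth, 8.85 by background), −89.9 kb (8.01 and 9.53), −202 kb (6.29 and 7.49) and −157 kb (6.87 and 8.17), and by depth it was not reached at +35.1 kb (9.15), −156 kb (9.73) and the WT A region of Bhlhe41 (9.73). The weakest peak called in KO G was not reached by background from −202 kb (7.25) and −157 kb (7.91). Binding below these levels was not detectable in the KO lists.

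The genes most like Bhlhe40 in peak numbers over the 4 lists were Tcf7l2, a transcription factor of the Wnt pathway, with 12 WT A, 23 WT G and 0 KO peaks, then Rasgef1b, a Ras family exchange factor, with 10, 22 and 0, and Irf2bp2, a corepressor, with 9, 22 and 0. Their summed differences from Bhlhe40 were 1, 2 and 3 peaks. They had 10, 7 and 7 regions in both WT lists, beside 8 at Bhlhe40. Their strongest WT A peaks reached −log10 q of 16.2, 25.9 and 18.4, beside 9.11 for Bhlhe40, and their strongest WT G peaks 13.2, 13.2 and 21.3, beside 12.6. The counts of Bhlhe41 over the 4 lists were shared exactly by 269 other genes, of which Ap3s1, Cdk17 and Fam53c had the closest −log10 q values, so its pattern was common.

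Other genes of the circadian loop and of helix-loop-helix families were counted in the same way, by the rule used for the members. Of 18 genes of the circadian feedback loop, 6 (33.3%) had a region shared by WT A and WT G nearest to them: Per1 and Per2 (period repressors), Cry1 (cryptochrome repressor), Nr1d1 (REV-ERBα, a heme-binding nuclear receptor), Dbp (an activator of the PAR bZIP group) and Nfil3 (a repressor at the same sites as Dbp). The median number of shared regions in the list was 0. Nfil3 stood out with 5 shared regions and top −log10 q values of 15.8 (WT A) and 18.8 (WT G), and Per2 reached 9.11 and 15.9 with 2. Per1 had a shared region at 0.168 kb from its TSS, with 4.31 and 9.26 as its highest values. Clock and Arntl (BMAL1), which encode the activators that BHLHE40 and BHLHE41 oppose, had no peak in any of the 4 lists.

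Among 10 genes of the HES and HEY family, which share the Orange domain with the members, 2 (20%) had a shared region. Hes7 had 2 and Hey1 had 1, the latter at −79.8 kb from its TSS. Their top −log10 q values were 12.3 (WT A) and 10.5 (WT G) for Hes7, and 2.6 (WT A) and 5.73 (WT G) for Hey1. Of 21 genes of the helix-loop-helix leucine zipper group, 6 (28.6%) had one. These were Mitf, Tfeb and Tfec, relatives that control lysosomal and myeloid genes, Myc and Mnt of the Myc network, and Usf1, an E-box activator. Myc had 4 shared regions and the highest values of the group, 25.9 in WT A and 15.9 in WT G, and was the single gene of these lists with a KO peak, in KO G at 6.31. Each share is to be read beside the 8.82% of all protein-coding genes. When the peaks had to share 50% of their length, the counts were 3 circadian genes, 1 HES and HEY gene and 3 leucine zipper genes, beside 5.29% of all protein-coding genes. Nothing particular to a list was tested.

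The members' summits were also searched for the receptor's own sites. The 13 WT A summits and 24 WT G summits were searched on both strands within 50 bp for DR1 (AGGTCANAGGTCA), DR4 (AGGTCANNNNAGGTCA) and DR5 (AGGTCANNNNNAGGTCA) with at most 2 mismatches. A DR1 was found at 0 WT A and 1 WT G summits, beside 6.04% and 3.34% of all summits of those lists. It is the site AGGTCACAGGGCA at −89.7 kb (chr6:108570853-108570865), with 1 mismatch, 22 bp from the WT G summit and outside the WT A peak of the same region. The count depends on the setting: 2 summits had a DR1 within 100 bp, the added one at the 3′ UTR peak of Bhlhe41 at +3.07 kb, and 8 had one within 50 bp with at most 3 mismatches. The share of all summits was not counted at these looser settings, so the counts of 2 and 8 cannot be set beside the shares above. A DR5 was found at 1 WT A summit (2.27% of the list) and 0 WT G summits (1.46%). It is the site AGGTGAAACTAAGGTCA in the neighbouring region at −90.8 kb (chr6:108569816-108569832), with 1 mismatch, 1 bp from the WT A summit and inside the WT G peak. The best DR1 and DR5 of Bhlhe40 thus lay in the pair of regions 90 kb upstream. A DR4 with 2 mismatches (AGGTCTCTGCAGTTCA on the minus strand, chr6:108503858-108503873) was under the WT A summit (−157 kb) of the shared region at −156 kb. DR4 matches were at 2.02% of all WT A and 1.34% of all WT G summits. Windows that overlap within a region are not independent.

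Words of other AM factors were searched with no mismatch. A C/EBP word (TTGCNNAA or TTACNNAA) was found at 3 of the WT A summits, at −202, −194 and −189 kb (19.8% of the list), and at 0 WT G summits (14.6%). A RUNX word (TGTGGTT) was at 2 WT A summits and 1 WT G summit (5.85% and 4.4%). An AP-1 word (TGACTCA or TGAGTCA) was at 0 and 2 (4.9% and 4.07%), and a STAT5 word (TTCNNNGAA) was at 0 and 1 (4.02% and 3.31%). The STAT5 word is TTCGGGGAA (chr6:108660281-108660289) at the Bhlhe40 promoter, 26 bp from the WT G summit, in a window with a GC content of 70.3% beside a median of 46.5% over the WT G list. The PU.1 word AGGAAGTG was at none of the members' summits (4.42% and 2.93%). The E-box CACGTG, the site of BHLHE40 and BHLHE41 themselves, was also at none (2.08% and 2.16%). Counts of 0 to 3 over so few windows say little beside these shares, and a match describes letters in a window, not a bound site.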

How the data were processed

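Peak lists of 4 RXRα HT-ChIPmentation libraries were used; the input, the last of the 5 samples, was the authors' control, and its own data were not used here. The authors used Cutadapt for trimming, Bowtie2 for alignment to mm10 and SAMtools for filtering, dropped duplicates, and called peaks for each library separately against the input with MACS3 at a q threshold of 0.05. Each deposited peak has a fold enrichment (ratio of the ChIP pileup to the local background, 1 added to both) and −log10 p and −log10 q at its summit, and its deposited score repeats −log10 q, multiplied by 10, as a whole number. The study compared genotypes by read counts, which the lists do not hold. Here, peaks were assigned to the nearest protein-coding TSS (GENCODE M21, basic set), WT peaks were merged where they overlapped by at least 1 bp, and peak numbers were compared by an exact permutation test (two-sided). Fragments were derived by solving fold enrichment and −log10 p, as a Poisson tail, for a whole pileup (within 0.004, or 0.012 in WT A) over a background, and relative depth was read from the step of that background. Motifs were scanned within 50 bp of each summit. Steps were tested on simulated data with scipy 1.17.1, numpy 2.4.6, pandas 2.3.3, matplotlib 3.10.9 and pysam 0.24.0 under Python 3.11.15. The members and gene lists were chosen with earlier results of these data known. The genes named were the members, their neighbours, the 3 genes with the closest peak numbers to each member (ties by −log10 q), and each list gene with a region in both WT lists; Clock and Arntl were added after their values were seen. The closing section gives the alternatives tried.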

Additional observations from a re-analysis of the deposited data

How the results depend on the processing

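Of 82 alternative values, 13 moved a count of regions, list genes or DR1 summits by over 1.5 times or away from 0, and 0 reversed a direction. The other 69 include the differences in peak number, which were judged by direction alone. These differences kept their direction under every alternative but moved by over 1.5 times under some. No KO list had a peak at either gene under any of them. The closest KO peak on chromosome 6 was 10.8 Mb from Bhlhe40 and 26.4 Mb from Bhlhe41. No setting tried could therefore have brought a KO peak to either gene or reversed a difference in peak number, so these outcomes were fixed in advance. The Bhlhe40 counts depend on which TSSs compete. With the TSSs of all genes, which include a noncoding gene overlapping the Bhlhe40 start, the WT minus KO difference was 0.5 peaks (p = 1, exact permutation test) and 0 regions were in both WT lists. Within 100 kb of the TSS it was 9.5 peaks and 5 regions. With all transcripts of coding genes in the comprehensive set, chosen after seeing the data, it was 5.5 peaks and 2 regions. Without peaks in the body of another gene, also chosen then, it was 8.5 peaks and 4 regions. Bhlhe41 gave 0.5 peaks with the TSSs of all genes (p = 1, exact permutation test) and 2 within 100 kb. An overlap of at least 50% of both peaks left 2 Bhlhe40 regions, 3 circadian genes, 1 HES and HEY gene and 3 leucine zipper genes. Leaving out each library in turn gave 12 to 22 peaks and 8 to 22 regions for Bhlhe40 (12 without WT G, 22 without WT A, where the regions of the other WT library stand alone), and 1 to 2 peaks and 0 to 2 regions for Bhlhe41. Cutting WT G to as many peaks as WT A gave 13.5 peaks and 7 regions for Bhlhe40. A DR1 was at 2 summits within 100 bp and at 8 with at most 3 mismatches, settings for which the share of all summits was not counted. As pairs of letters (replicate block), the differences stayed at 17 and 1.5 peaks, with p = 0.5 in an exact sign-flip permutation test, the smallest that 2 pairs can give; the labels do not say what the letters pair. Depth limits what a KO list could show, as given beside the fragments.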
